A study of Homo sapiens with 10 samples.

Results

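The genes described here are 10 genes of the actin cytoskeleton, taken by their symbols from the 23284 rows of the expression table: the cytoplasmic actins ACTB and ACTG1, the actin monomer binding proteins TMSB4X, TMSB10 and PFN1, the filament severing protein CFL1, the tropomyosins TPM1 and TPM4, the cross-linker FLNA and, as a neighbouring filament system, the intermediate filament protein VIM. All 10 were found in the table and all 10 were expressed above the limit for testing, a mean of 0.5 FPKM over the samples, which 12788 genes reached. K562 cells, an established human line from a chronic myelogenous leukemia, were kept for 48 h with the vehicle DMSO or with 1 of the inhibitors CBP30 and I-CBP112, each used at 2 µM and at 5 µM, and polyadenylated RNA was sequenced. Both compounds block the bromodomains of the histone acetyltransferases CREBBP and EP300, which are coactivators of transcription. Each of the 5 conditions had 2 biological replicates, 10 samples in total, all of the same line in RPMI medium with 10% FBS, and the DMSO samples served as the control of all 4 treatments. The comparisons with DMSO ask how each inhibitor moved these genes, and ACTB is of added interest because it is a usual reference gene.

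Actin exists as monomers and as filaments. Thymosins beta and profilin bind the monomers, cofilin severs and depolymerises filaments, tropomyosins lie along filaments and control which proteins reach them, and filamin A joins filaments into networks and anchors them to membrane proteins. Several of these genes are known targets of serum response factor (SRF) with its MRTF cofactors, which respond to the pool of free actin. In erythroid cells such as K562, actin is also part of the spectrin membrane skeleton.

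ACTB and ACTG1 encode nearly the same protein from 2 genes, as do, to a lesser degree, TMSB4X and TMSB10, so the start of each coding sequence is shown here to let a reader see how far short reads can tell each pair apart. Capitals mark the bases that differ from the other gene of the pair, read on the coding strand of GRCh37 (ACTB chr7:5569229-5569288, minus strand, ACTG1 chr17:79479321-79479380, minus strand, TMSB4X chrX:12994381-12994440, plus strand, TMSB10 chr2:85133142-85133201, plus strand).
ACTB: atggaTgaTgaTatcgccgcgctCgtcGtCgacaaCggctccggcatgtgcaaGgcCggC
ACTG1: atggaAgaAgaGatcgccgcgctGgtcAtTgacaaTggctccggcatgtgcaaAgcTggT
TMSB4X: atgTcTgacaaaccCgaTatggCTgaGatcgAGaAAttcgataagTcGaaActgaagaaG
TMSB10: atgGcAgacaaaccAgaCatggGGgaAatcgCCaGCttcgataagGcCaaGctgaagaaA

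Over the whole coding sequence of 1125 bases, ACTB and ACTG1 differed at 98 bases (91.3% identity), and their longest identical run was 59 bases. The 132 coding bases of TMSB4X and TMSB10 differed at 37 (72.0% identity). The libraries were sequenced for 50 bases, so each transcript was cut into all its windows of 50 bases and these were looked for elsewhere in the genome and in transcripts of other genes. Copies of such windows were found for 20.3% of ACTB, 9.6% of ACTG1, 74.5% of TMSB4X, 2.4% of TMSB10, 16.8% of PFN1, 0.6% of CFL1 and 32.4% of TPM4, and for none of TPM1 or VIM and 1 of the 8458 windows of FLNA. Pseudogenes were among the places of these copies, but their share was not counted. How reads with several matches were counted is not given in the sources used here, so the levels of TMSB4X, TPM4, ACTB and PFN1 are the less certain ones. Of a fixed list of possible copies, POTEM, the highest of the actin-related ones, lay between 1.11 and 1.89 FPKM in the 10 samples. PFN1P2 lay between 0.645 and 2.87, but the gene found to share windows with PFN1 was PFN1P1 (110). Levels of the pseudogenes that shared the most windows with TPM4 (468) and TMSB4X (76) are not given here. Low levels of copies do not show how shared reads were counted.

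The table gives no counts of reads and sequencing depth is therefore unknown. The values of 398 long genes, found in 2 to 4 samples only, put relative depth between 0.925 and 1.08 of the mean. This takes each value as a few reads, which was not tested, and genes that a treatment switched on were not excluded. The FPKM of all genes summed to between 547504 and 689095 per sample. Replicate 1 of 2 µM CBP30 stood apart: its difference from DMSO ran with transcript length (Spearman's rank correlation -0.468 over 12130 genes, against -0.0436 in its replicate 2), so that the shortest quintile of genes had a median difference of 0.30 (log2) and the longest quintile one of -0.30. In both samples of 5 µM CBP30 the trend was weaker and opposite (0.195 in each). Results are therefore also given with this trend removed from every sample. Whether the trend shared by both samples of 5 µM CBP30 came from the libraries or from the treatment was not tested. Its removal changes the differences at that dose, raising that of ACTB from 0.36 to 0.48 and lowering that of FLNA from 0.61 to 0.49. Calls with this correction rest in part on it. The erythroid markers of the line summed to between 1887 and 1936 FPKM with DMSO and between 603 and 629 with 5 µM CBP30, so the state of the cells differed between the groups, and its part in the results was not tested. The 7 fibroblast markers were near 0 but moved with the treatment, from a sum of 0.739 to 0.765 FPKM with DMSO to 2.34 to 2.55 with 5 µM CBP30 (LUM was at 0 in both groups), and 8 megakaryocyte markers moved from between 3.43 and 3.53 to between 1.55 and 1.77. Their part in the results was not tested. Fewer transcripts per cell and a changed mixture of cells cannot be told apart in bulk RNA.

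In DMSO, ACTB was the highest of the 10 genes (1381 ± 6.24 FPKM, SD, n = 2) and ranked 55 among all genes of the table by its mean over the 10 samples. FPKM is scaled for transcript length, so levels of different genes can be set side by side. VIM (1008 ± 19.7), TMSB4X (948 ± 22.0), PFN1 (706 ± 20.1), ACTG1 (593 ± 3.35), CFL1 (579 ± 9.03) and TMSB10 (408 ± 8.34) followed in that order, and ACTG1 lay above CFL1 in each DMSO sample by a small margin. FLNA (48.6 ± 0.523), TPM4 (45.5 ± 0.398) and TPM1 (10.0 ± 0.525) were far lower. The 10 genes together made up 0.934% ± 0.000730 of all FPKM with DMSO, 1.16% ± 0.126 with 2 µM CBP30, 1.35% ± 0.00666 with 5 µM CBP30, 0.990% ± 0.0105 with 2 µM I-CBP112 and 1.05% ± 0.0211 with 5 µM I-CBP112. Their share was thus above both DMSO samples in every treated group.

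**Figure D1:**
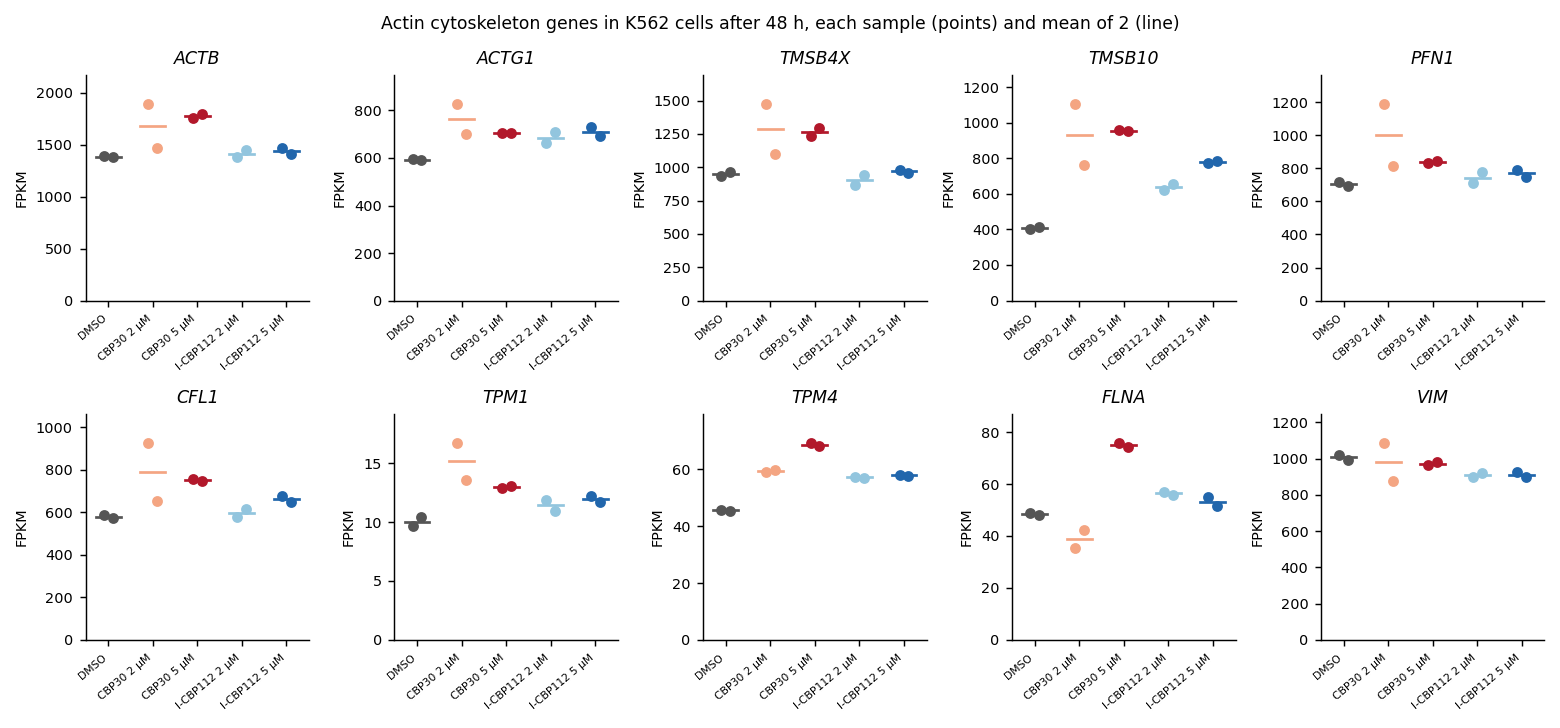
FPKM (y axis, from 0, a scale per gene) of the 10 actin cytoskeleton genes in each of the 5 conditions (x axis), with a point for each of the 2 samples and a line at their mean. In 2 µM CBP30, replicate 1 lies above replicate 2 for 8 of the 10 genes, whereas the samples of 5 µM CBP30 nearly coincide, TMSB10 is higher in all treated samples than with DMSO, and FLNA is below DMSO at 2 µM CBP30 and above it at 5 µM.

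With 5 µM CBP30, 6 of the 10 genes passed the test as higher than DMSO (ACTB, TMSB4X, TMSB10, TPM1, TPM4 and FLNA) and 0 as lower (0 also at an unadjusted p under 0.05 in limma). The background was high: 21.2% of all genes tested were called higher and 25.4% lower in this comparison. The median difference of the 10 genes was 0.37 on the log2(FPKM + 1) scale, against -0.01 for all genes tested, and 9 of the 10 lay above both DMSO samples, as did 39.5% of all genes. With 2 µM CBP30, 5 genes were called higher (ACTG1, TMSB4X, TMSB10, TPM1 and TPM4) and 1 lower (FLNA), where 15.9% of all genes were called higher and 16.3% lower, and the median of the 10 genes was 0.40, against 0.01 for all genes.

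I-CBP112 moved fewer genes of any kind. At 5 µM, TMSB10 and TPM4 were called higher, 2 of the 10 genes with a median of 0.16, against 3.84% of all genes higher and 3.28% lower with a median of 0.00. At 2 µM, TPM4 alone of the 10 was called higher, with 0.868% of all genes called higher and 0.735% lower. As the 10 genes were chosen with results of these data known, their counts and p-values are a description.

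These counts depended on the spread given to each gene. All 5 groups shared 1 estimate of the spread, and the distance between the samples of 2 µM CBP30 (up to 0.55 on the log2 scale, against at most 0.13 between replicates of the 10 genes elsewhere) entered every comparison. Without replicate 1 or without replicate 2 of 2 µM CBP30, 9 of the 10 genes, all but VIM, were called higher with 5 µM CBP30, and with the length trend removed it was again 9. The background moved too: with the length trend removed, 3306 of all 12130 genes were called higher with 5 µM CBP30 and 3400 lower. Over all settings, between 4069 and 8049 genes were called in this comparison. In a fit of only DMSO and 2 µM CBP30, all 6 calls at 2 µM were lost (adjusted p from 0.0784 to 0.276). Leaving out any of the other 8 samples lowered the count to 3 or 4. The calls of TMSB10, TPM4 and FLNA with 5 µM CBP30 held in all 21 alternatives, and that of TPM1 in all but 4, those without either DMSO sample or either sample of 5 µM CBP30.

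**Figure D2:**
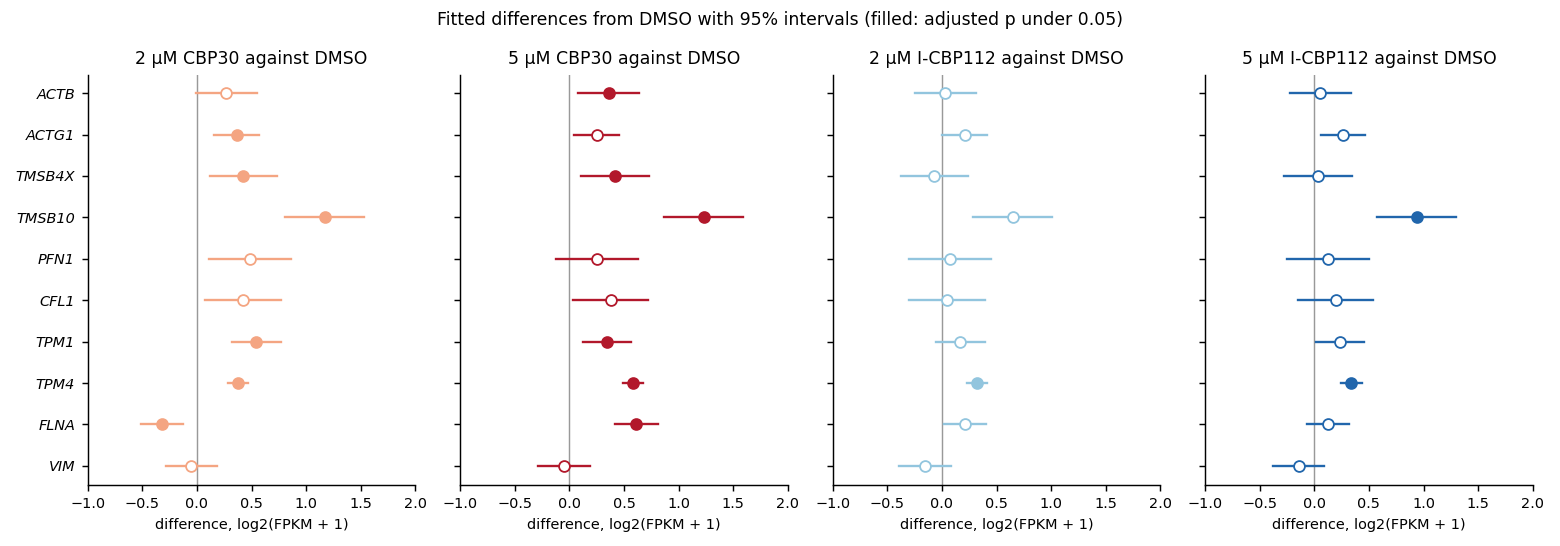
Fitted difference from DMSO on the log2(FPKM + 1) scale (x axis) for each of the 10 genes (y axis) in the 4 treatments (panels), with 95% intervals from the fit of all 10 samples. Filled points have a Benjamini-Hochberg adjusted p under 0.05: 5 higher and 1 lower at 2 µM CBP30, 6 higher at 5 µM CBP30, TPM4 alone at 2 µM I-CBP112, and TMSB10 and TPM4 at 5 µM I-CBP112.

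ACTB encodes beta-actin, the main cytoplasmic actin. It was at 1386 and 1377 FPKM with DMSO, 1890 and 1465 with 2 µM CBP30 and 1753 and 1792 with 5 µM CBP30. I-CBP112 gave 1375 and 1451 FPKM at 2 µM and 1465 and 1406 at 5 µM. All 4 samples of CBP30 lay above both DMSO samples, as did those of 5 µM I-CBP112, while 1 sample of 2 µM I-CBP112 lay below them. ACTB rose 1.28-fold with 5 µM CBP30 by the means, or by 0.36 ± 0.12 (SE) on the log2(FPKM + 1) scale with an adjusted p of 0.0412. The genes were chosen with a rise of ACTB with CBP30 in these data already known, so this p-value is a description. This call was lost without either DMSO sample, either sample of 5 µM CBP30 or any of the 4 samples of I-CBP112 (0.34 to 0.38, adjusted p from 0.0666 to 0.165). It was also lost with no filter on low genes (adjusted p = 0.0952) and with median centring (adjusted p = 0.0651), and quantile normalization raised the difference to 0.66 (adjusted p = 1.34e-05). It held without replicate 1 of 2 µM CBP30 (adjusted p = 0.000505) and without replicate 2 (adjusted p = 0.00052). With 2 µM CBP30 the difference was 0.27 ± 0.12 (adjusted p = 0.122), which became 0.09 without replicate 1 of that group, 0.45 without replicate 2 (called, adjusted p = 0.000711), and 0.10 when samples were centred on reference genes. With I-CBP112 it was 0.03 at 2 µM (95% interval -0.25 to 0.31) and 0.06 at 5 µM (-0.22 to 0.33). The interval with 5 µM CBP30, 0.08 to 0.64, overlapped both. Compared directly, the compounds were not called different for ACTB at 2 µM (adjusted p = 0.195) or at 5 µM (adjusted p = 0.0918).

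ACTG1, gamma-actin, was at 595 and 590 FPKM with DMSO, 827 and 702 with 2 µM CBP30 and 704.05 and 704.08 with 5 µM CBP30. I-CBP112 gave 663 and 708 FPKM at 2 µM and 728 and 693 at 5 µM. Every treated sample was above both DMSO samples. In the fit of all 10 samples the rise was called with 2 µM CBP30 only (0.36 ± 0.09, adjusted p = 0.0195), and was lost there without either DMSO sample (adjusted p from 0.0897 to 0.0990) and after quantile normalization (0.10, adjusted p = 0.0612). With the length trend removed it was called in all 4 treatments (0.22 to 0.36, adjusted p at most 0.0213). With 5 µM CBP30 the difference was 0.25 ± 0.09 (adjusted p = 0.0511), and without either sample of 2 µM CBP30 it was called (adjusted p = 0.0028 in each). The actins were thus in different proportion among the treatments: ACTB was 2.33 ± 0.00264 times ACTG1 with DMSO and 2.52 ± 0.0397 times with 5 µM CBP30, but 2.28 and 2.09 times in the samples of 2 µM CBP30, 2.08 and 2.05 times in those of 2 µM I-CBP112, and 2.02 ± 0.0118 times with 5 µM I-CBP112. The ratio was thus above both DMSO samples at 5 µM CBP30 alone, and below both in the other 3 treatments, 2 µM CBP30 included.

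TMSB10 encodes thymosin beta-10, which sequesters actin monomers, and it moved the most of the 10 genes. It was at 402 and 414 FPKM with DMSO, 1106 and 762 with 2 µM CBP30 and 958 and 955 with 5 µM CBP30. I-CBP112 gave 624 and 655 FPKM at 2 µM and 776 and 787 at 5 µM. Every treated sample lay above both DMSO samples, and those of I-CBP112 stood in the order of the dose. The rise was 2.34-fold with 5 µM CBP30 (1.23 ± 0.15 on the log2 scale, adjusted p = 0.000682), 2.29-fold with 2 µM CBP30 (1.17 ± 0.15, adjusted p = 0.00194) and 1.92-fold with 5 µM I-CBP112 (0.94 ± 0.15, adjusted p = 0.0151). With 2 µM I-CBP112 the difference of 0.65 was not called (adjusted p = 0.108), but was without either sample of 2 µM CBP30 (adjusted p = 0.000927 and 0.000963). The call with 5 µM I-CBP112 was lost without either DMSO sample or either of its own samples (adjusted p from 0.0953 to 0.113).

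TMSB4X encodes thymosin beta-4, the most abundant monomer-sequestering peptide of many cells. It was at 932 and 963 FPKM with DMSO, 1474 and 1099 with 2 µM CBP30 and 1236 and 1296 with 5 µM CBP30. I-CBP112 gave 869 and 940 FPKM at 2 µM and 978 and 960 at 5 µM. The CBP30 samples were above DMSO, and those of I-CBP112 overlapped it. It rose by 0.42 ± 0.13 at 5 µM CBP30 (adjusted p = 0.0351) and by 0.43 ± 0.13 at 2 µM CBP30 (adjusted p = 0.0448), but each call was lost without either DMSO sample, either sample of 5 µM CBP30 or any of the 4 samples of I-CBP112 (adjusted p from 0.0562 to 0.155 and from 0.0714 to 0.173). Both were lost as well with no filter on low genes (adjusted p = 0.0661 and 0.0823) and with median centring (adjusted p = 0.0534 and 0.0513), and quantile normalization moved the differences to 0.71 and 0.27. Without replicate 1 of 2 µM CBP30, the difference at 2 µM was 0.21 (adjusted p = 0.0355), and with the length trend removed it was 0.22 (adjusted p = 0.00493). TMSB10 was 0.431 ± 0.00117 times TMSB4X with DMSO and 0.756 ± 0.0266 times with 5 µM CBP30, and the ratio was between 0.693 and 0.819 in all 8 treated samples, none of which overlapped DMSO.

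The summed thymosins relative to the summed actins were 0.687 ± 0.0187 with DMSO, 0.904 ± 0.0646 with 2 µM CBP30, 0.897 ± 0.00612 with 5 µM CBP30, 0.736 ± 0.00446 with 2 µM I-CBP112 and 0.816 ± 0.0231 with 5 µM I-CBP112. The treated groups were above both DMSO samples in each case, and this ratio is a description that was not tested.

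PFN1 encodes profilin, which delivers monomers to growing filament ends, and CFL1 encodes cofilin. PFN1 was at 720 and 691 FPKM with DMSO, 1190 and 815 with 2 µM CBP30 and 835 and 845 with 5 µM CBP30. I-CBP112 gave 712 and 777 FPKM at 2 µM and 791 and 751 at 5 µM. Replicate 1 of 2 µM CBP30 stood far above the other 9 samples. CFL1 was at 586 and 573 with DMSO, 925 and 652 with 2 µM CBP30 and 757 and 746 with 5 µM CBP30. I-CBP112 gave 579 and 618 FPKM at 2 µM and 675 and 650.1 at 5 µM. All CBP30 samples of both genes were above DMSO, yet neither gene was called. The differences were 0.48 ± 0.16 for PFN1 (adjusted p = 0.0561) and 0.42 ± 0.15 for CFL1 (adjusted p = 0.0643) at 2 µM, and 0.25 ± 0.16 (adjusted p = 0.235) and 0.38 ± 0.15 (adjusted p = 0.0716) at 5 µM. Replicate 1 of 2 µM CBP30 set much of this. Without it the differences at 2 µM were 0.21 for PFN1 (adjusted p = 0.0473) and 0.17 for CFL1 (adjusted p = 0.0426), and without either sample of that group the calls at 5 µM were made as well (adjusted p at most 0.00663 for PFN1 and 0.000447 for CFL1).

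TPM4 encodes a tropomyosin of non-muscle cells. It was at 45.8 and 45.3 FPKM with DMSO, 59.1 and 59.7 with 2 µM CBP30 and 69.2 and 68.2 with 5 µM CBP30. I-CBP112 gave 57.5 and 56.9 FPKM at 2 µM and 58.2 and 57.5 at 5 µM. Every treated sample was above DMSO, and 5 µM CBP30 was above all the others. In the fit of all 10 samples TPM4 was called higher in all 4 treatments, the only one of the 10 genes for which this held: 2 µM CBP30 gave 0.38 ± 0.04 (adjusted p = 0.000835), 5 µM CBP30 0.58 ± 0.04 (1.51-fold, adjusted p = 5.2e-05), 2 µM I-CBP112 0.32 ± 0.04 (adjusted p = 0.0141) and 5 µM I-CBP112 0.34 ± 0.04 (adjusted p = 0.00445). The call with 2 µM I-CBP112 was lost without any of the 8 samples other than those of 2 µM CBP30 (0.31 to 0.33, adjusted p from 0.0503 to 0.125), and that with 5 µM I-CBP112 without its replicate 1 (adjusted p = 0.0509). Centred on reference genes, the calls were lost with 2 µM CBP30 (0.21, adjusted p = 0.0859), 2 µM I-CBP112 (0.35, adjusted p = 0.126) and 5 µM I-CBP112 (0.28, adjusted p = 0.0943). TPM4 was called in all 4 treatments with the length trend removed, and so were ACTG1 and TMSB10.

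TPM1, the other tropomyosin, was at 9.66 and 10.4 FPKM with DMSO, 16.7 and 13.6 with 2 µM CBP30 and 12.9 and 13.1 with 5 µM CBP30. I-CBP112 gave 11.9 and 10.9 FPKM at 2 µM and 12.2 and 11.7 at 5 µM. It was above DMSO in every treated sample. It rose by 0.54 ± 0.09 with 2 µM CBP30 (1.51-fold, adjusted p = 0.00593) and by 0.34 ± 0.09 with 5 µM CBP30 (1.29-fold, adjusted p = 0.0215). The second of these was lost without either DMSO sample or either sample of 5 µM CBP30 (adjusted p from 0.0534 to 0.119). With I-CBP112 the differences were 0.17 (adjusted p = 0.504) and 0.23 (adjusted p = 0.202).

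FLNA encodes filamin A and has by far the longest transcript of the 10 genes, 8507 bases, where the others have between 461 and 2474. It was at 49.0 and 48.2 FPKM with DMSO, 35.4 and 42.5 with 2 µM CBP30 and 75.7 and 74.2 with 5 µM CBP30. I-CBP112 gave 57.0 and 55.8 FPKM at 2 µM and 55.0 and 51.4 at 5 µM. It was below DMSO in both samples of 2 µM CBP30 and above it in the other 6 treated samples. With 5 µM CBP30 it rose 1.54-fold (0.61 ± 0.08, adjusted p = 0.000978), and with 2 µM CBP30 it was called lower (-0.32 ± 0.08, adjusted p = 0.0259). The fall at 2 µM was -0.19 without replicate 1 of that group (adjusted p = 0.0239), -0.14 with the length trend removed (adjusted p = 0.0479) and -0.49 when centred on reference genes (adjusted p = 0.0359). It lost its call without either DMSO sample or either sample of 5 µM CBP30 (adjusted p from 0.0507 to 0.114). The rise at 5 µM was 0.49 with the length trend removed (adjusted p = 0.000104).

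VIM encodes vimentin, which forms intermediate filaments and not actin filaments. It was at 1022 and 994 FPKM with DMSO, 1084 and 874 with 2 µM CBP30 and 965 and 979 with 5 µM CBP30. I-CBP112 gave 897 and 918 FPKM at 2 µM and 925 and 898 at 5 µM. Apart from replicate 1 of 2 µM CBP30, all treated samples were below both DMSO samples. No comparison called it: the differences were -0.05 with 2 µM CBP30 (95% interval -0.29 to 0.19), -0.05 with 5 µM CBP30 (-0.29 to 0.18), -0.15 with 2 µM I-CBP112 (-0.39 to 0.09) and -0.14 with 5 µM I-CBP112 (-0.38 to 0.09). Its direction with 5 µM CBP30 turned to 0.05 with the length trend removed and to 0.16 after quantile normalization (adjusted p = 0.00422). Without replicate 1 of 2 µM CBP30 it was called lower with that treatment (-0.21, adjusted p = 0.0109), and without either sample of that group it was called lower with I-CBP112 (adjusted p from 0.0433 to 0.0440 at 2 µM and from 0.0269 to 0.0273 at 5 µM).

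The transcripts of these genes differ in length by much, and the plot of the differences by length shows what this did in replicate 1 of 2 µM CBP30. There, the difference from the DMSO mean ran from 1.44 in TMSB10, with 461 bases, to -0.45 in FLNA, with 8507. In the samples of 5 µM CBP30 no such order was seen, with TMSB10 at 1.23 and 1.22 and FLNA at 0.63 and 0.60. With the trend over all genes removed from each sample, the standard errors of the 10 genes lay between 0.04 and 0.07, and with 2 µM CBP30 8 genes were called higher, FLNA lower and VIM (-0.12, adjusted p = 0.1) neither. ACTB was then higher by 0.17 ± 0.06 at 2 µM (adjusted p = 0.0423) and by 0.48 ± 0.06 at 5 µM (adjusted p = 0.000299). PFN1 was then higher by 0.29 (adjusted p = 0.00821) and 0.41 (adjusted p = 0.00108), and CFL1 by 0.27 (adjusted p = 0.0136) and 0.53 (adjusted p = 0.000401). The share of all genes called at 2 µM CBP30 with this correction is not given here, so the count of 8 has no background beside it.

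**Figure D3:**
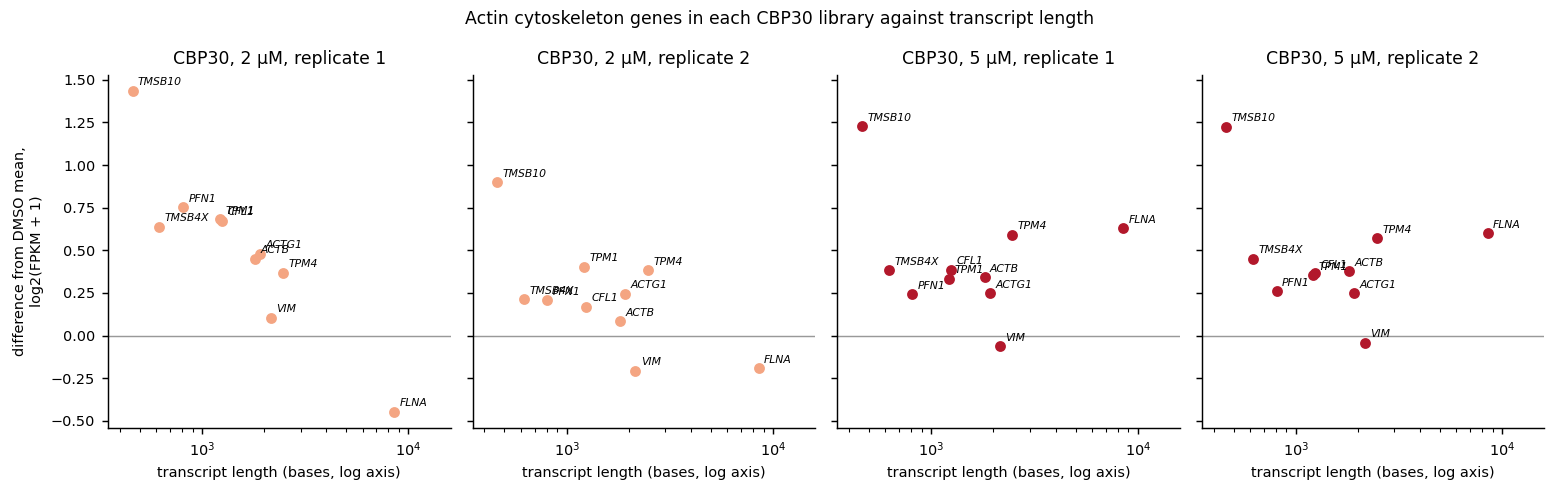
Difference of each gene from the mean of the DMSO samples on the log2(FPKM + 1) scale (y axis) against its transcript length in bases (x axis, a log axis), in the 4 CBP30 samples (panels). In replicate 1 of 2 µM CBP30 the points descend from TMSB10 at 1.44 to FLNA at -0.45, and in both samples of 5 µM CBP30 FLNA lies above 0, at 0.63 and 0.60.

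The doses were compared next. Between 5 and 2 µM CBP30, TPM4 (0.21 ± 0.04, adjusted p = 0.0101) and FLNA (0.93 ± 0.08, adjusted p = 0.00104) were called higher and none of the 10 genes lower, where 17.6% of all genes were called higher and 21.3% lower. The call of TPM4 was lost without either sample of 5 µM CBP30 (adjusted p from 0.0585 to 0.0645), and both calls were lost in a fit of only the groups compared (adjusted p = 0.155 for TPM4 and 0.114 for FLNA). With the length trend removed, ACTB (0.31, adjusted p = 0.00658), TMSB4X (0.35, adjusted p = 0.00147), TMSB10 (0.41, adjusted p = 0.00274), CFL1 (0.25, adjusted p = 0.0214) and VIM (0.17, adjusted p = 0.0397) were called higher at 5 µM as well, with FLNA at 0.62 (adjusted p = 0.000238) and TPM4 at 0.34 (adjusted p = 0.00216). The share of all genes called in this dose step with the correction is not given here, and ACTB stood at 0.09 without it. Between 5 and 2 µM I-CBP112, limma called 0 of the 10 genes (0 at an unadjusted p under 0.05 as well), and 0.0547% of all genes higher and 0.00782% lower. The largest difference was that of TMSB10, 0.29 (95% interval -0.07 to 0.65, adjusted p = 0.88).

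CBP30 and I-CBP112 were compared directly at the matched concentrations, 2 pairs in all, with p-values adjusted over the genes within each pair. At 5 µM, TPM4 was higher with CBP30 than with I-CBP112 by 0.24 ± 0.04 (adjusted p = 0.0045) and FLNA by 0.49 ± 0.08 (adjusted p = 0.0052), and none of the 10 was lower, where 13.6% of all genes were called higher and 17.9% lower. ACTB differed by 0.30 (95% interval 0.03 to 0.58, adjusted p = 0.0918), TMSB4X by 0.38 (0.08 to 0.69, adjusted p = 0.0624) and TMSB10 by 0.29 (-0.07 to 0.65, adjusted p = 0.188), none of them past the threshold. ACTG1 differed by -0.01 (-0.22 to 0.19, adjusted p = 0.927). With the length trend removed, all but ACTG1 (adjusted p = 0.0576) were called higher with CBP30 at 5 µM, ACTB by 0.43 (adjusted p = 0.0011). How many of all genes were called between the compounds with this correction is not given here.

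At 2 µM, where 7.13% of all genes were called higher with CBP30 and 8.45% lower, TMSB4X (0.49 ± 0.13, adjusted p = 0.0471) and TPM1 (0.37 ± 0.09, adjusted p = 0.0412) were higher and FLNA was lower (-0.53 ± 0.08, adjusted p = 0.0096). The TMSB4X call was lost without any of the 8 samples outside 2 µM CBP30 (adjusted p from 0.0867 to 0.219), that of TPM1 without any sample but replicate 2 of 2 µM CBP30 (0.23 to 0.43, adjusted p from 0.0601 to 0.17), and that of FLNA without either sample of 2 µM I-CBP112 (adjusted p from 0.0588 to 0.0713). TPM1 lost its call with the length trend removed (0.20, adjusted p = 0.0611), where TMSB4X was at 0.26 (adjusted p = 0.00503) and FLNA at -0.33 (adjusted p = 0.00349). TPM1 was also lost when centred on reference genes (0.18, adjusted p = 0.126), TMSB4X with median centring (adjusted p = 0.0549), both with no filter on low genes (adjusted p = 0.0627 and 0.0832), and all 3 with only the groups compared (adjusted p from 0.239 to 0.349). TPM4 differed by 0.05 at this concentration (95% interval -0.04 to 0.15, adjusted p = 0.37).

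The change from 2 to 5 µM was itself compared between the compounds. It was larger with CBP30 for FLNA, by 1.02 ± 0.12 on the log2 scale (adjusted p = 0.0105), and none of the other 9 genes passed, where 1.63% of all genes were called higher and 3.32% lower. The FLNA call was lost without either sample of 5 µM CBP30, replicate 1 of 2 µM I-CBP112 or either sample of 5 µM I-CBP112 (0.97 to 1.06, adjusted p from 0.0536 to 0.0627). With the length trend removed it was 0.67 (adjusted p = 0.0036), and TMSB4X (0.28, adjusted p = 0.0324) and TPM4 (0.33, adjusted p = 0.0281) passed as well.

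ACTB was also set against 11 genes in use as references for qPCR, without regard to library scaling, by the ratio within each sample. The ratio with 5 µM CBP30 was above both DMSO samples for 7 of the 11 and below both for 1. The same count, 7 and 1, was found with 2 µM I-CBP112, at a median change of 1.06-fold, and 2 µM CBP30 had 6 above and 2 below. With 2 samples a group such separation is common. By level, 39.5% of all genes lay above both DMSO samples and 42.6% below with 5 µM CBP30. The shares were 25.0% and 28.3% with 2 µM I-CBP112 and 31.4% and 30.5% with 2 µM CBP30. The counts of ratios are therefore a description. With 5 µM CBP30 the change ran from 0.942-fold against GUSB, a lysosomal glucuronidase, to 2.00-fold against RPL13A, a ribosomal protein gene, with a median of 1.39-fold. Against GAPDH, the glycolytic enzyme, it was 1.42-fold, against HPRT1 1.39-fold, SDHA 1.49-fold, RPLP0 1.52-fold, TBP 1.63-fold and PGK1 1.22-fold. Against B2M (0.983-fold), YWHAZ (0.961-fold) and PPIA (1.01-fold) the ratio changed little. In the test of single genes, B2M (0.38, adjusted p = 0.00713), YWHAZ (0.42, adjusted p = 0.00225) and GUSB (0.44, adjusted p = 0.0064) were higher with 5 µM CBP30 and TBP (-0.33, adjusted p = 0.00247) and RPL13A (-0.64, adjusted p = 0.00982) lower. Thus 5 of the 11 were called, near the share of all genes tested, of which 21.2% were called higher and 25.4% lower. PPIA, a cyclophilin, was at 0.34 (adjusted p = 0.0598), and GAPDH at -0.15 (adjusted p = 0.232), which turned to 0.07 after quantile normalization. With 5 µM I-CBP112 the ACTB ratio changed between 0.851-fold and 1.10-fold, with a median of 1.01-fold, and limma called 0 of the 11 references (1 at an unadjusted p under 0.05).

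**Figure D4:**
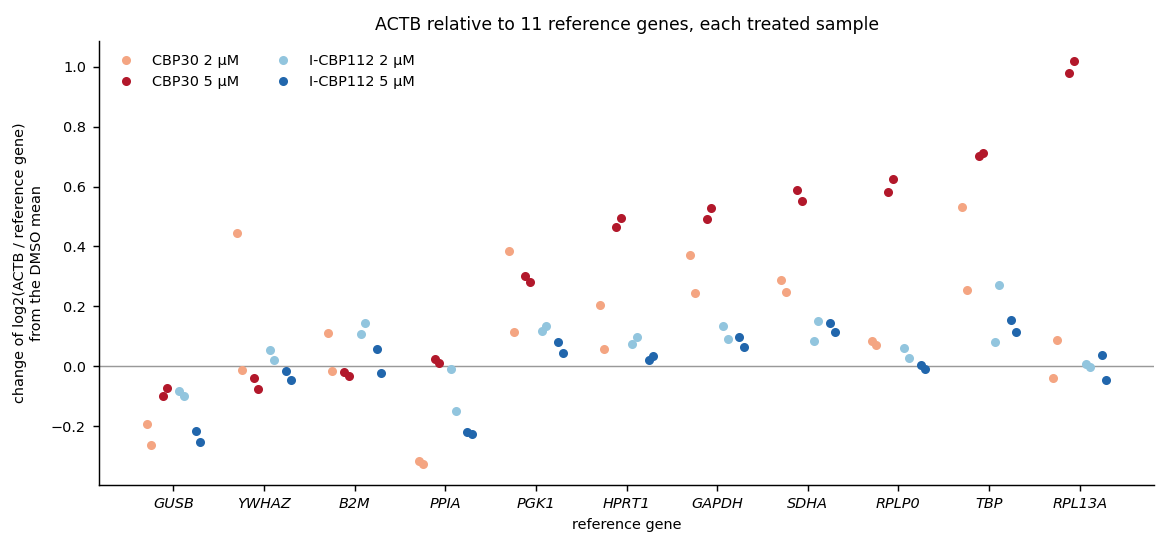
Change of the log2 ratio of ACTB to each of 11 reference genes from the mean of the DMSO samples (y axis), by reference gene (x axis, ordered by the change with 5 µM CBP30), with 2 points for each treatment. With 5 µM CBP30 the ratio goes from 0.942-fold against GUSB to 2.00-fold against RPL13A, and with 5 µM I-CBP112 from 0.851-fold to 1.10-fold.

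Other genes of the actin system, a list of 113 in the table of which 94 were tested, moved in both directions. In the comparison of 5 µM CBP30 with DMSO, 33 were called higher and 17 lower, with a median of 0.16, and 45 higher and 13 lower after quantile normalization. This is 35.1% higher and 18.1% lower, against 21.2% and 25.4% of all genes tested, and the groups described next are read against the same shares. Monomer-binding genes were called higher in 4 of 6 and lower in 0 (median 0.52), and TMSB15A, a further thymosin beta, rose from 0.187 ± 0.00349 to 5.64 ± 0.942 FPKM (2.48 on the log2 scale, adjusted p = 7.34e-05). Subunits of the Arp2/3 complex, the nucleator of branched filaments, were higher in 4 of 9 and lower in 0 (median 0.20), led by ARPC5 (0.61 ± 0.06, adjusted p = 0.000243). Non-muscle myosin II genes were higher in 2 of 6 and lower in 0, with MYL9, a regulatory light chain, at 1.07 ± 0.19 (adjusted p = 0.00314).

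Other groups were split. Among 12 capping and severing genes, 5 were higher and 2 lower, with CORO1A, a coronin, at 1.20 ± 0.15 (adjusted p = 0.000744) and TMOD1, the tropomodulin that caps filaments of the red cell membrane skeleton, falling from 23.3 ± 0.225 to 7.63 ± 0.0726 FPKM (-1.49, adjusted p = 1.98e-06). Among 18 cross-linkers and side-binding proteins, 6 were higher and 5 lower. SPTAN1, the non-erythroid alpha spectrin, rose from 10.8 ± 0.0972 to 48.7 ± 0.609 FPKM (2.07, adjusted p = 1.61e-05), and CNN1, a calponin, fell by 1.31 (adjusted p = 0.000118). Of 11 membrane linkers and adhesion proteins, 3 were higher, led by PXN, paxillin (0.98, adjusted p = 7.45e-06), and 4 lower, led by FERMT3, a kindlin of blood cells (-1.29, adjusted p = 3.61e-05). Of 15 nucleation promoters and formins, 4 were higher (WASL 0.63, adjusted p = 0.00122) and 3 lower (FMNL1 -0.64, adjusted p = 0.000215). The slingshot phosphatases, which activate cofilin, went apart: SSH1 was at 0.85 (adjusted p = 0.00107) and SSH2 at -0.80 (adjusted p = 0.0014). SRF itself fell from 15.7 ± 1.29 to 13.0 ± 0.0762 FPKM (-0.25, adjusted p = 0.0240), and its cofactor MKL2 was higher (0.58, adjusted p = 0.0431), a call lost when samples were centred on reference genes (adjusted p = 0.116).

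**Figure D5:**
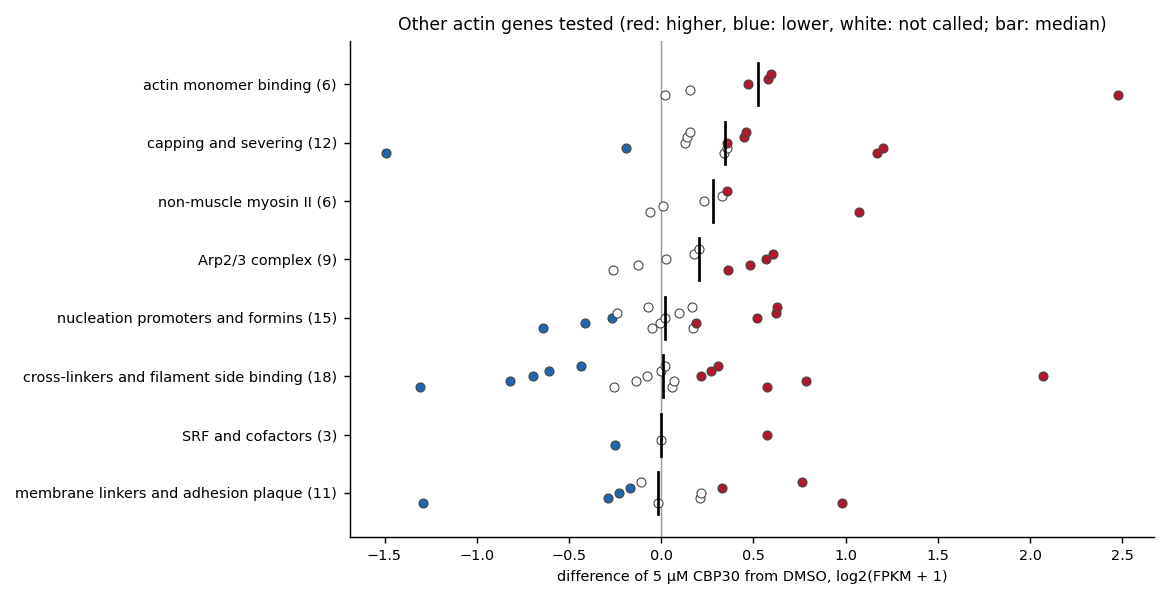
Difference of 5 µM CBP30 from DMSO on the log2(FPKM + 1) scale (x axis) of 80 of the other actin genes tested, by group with the number tested in brackets (y axis), with a bar at the median of each group. Called genes are red (29 higher) or blue (15 lower), and the monomer-binding group, at a median of 0.52, has 4 of 6 called higher and 0 lower.

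The same list had 31 genes higher and 16 lower with 2 µM CBP30 (median 0.08), or 33% and 17%, against 15.9% and 16.3% of all genes. I-CBP112 had 3 higher and 1 lower at 2 µM (3.19% and 1.06%, against 0.868% and 0.735%) and 7 higher and 3 lower at 5 µM (7.45% and 3.19%, against 3.84% and 3.28%). TMSB15A (0.99, adjusted p = 0.0242), SPTAN1 (0.87, adjusted p = 0.00485), PXN (0.47, adjusted p = 0.00163), TMOD1 (-0.52, adjusted p = 0.00159), CNN1 (-0.60, adjusted p = 0.0213) and SSH2 (-0.75, adjusted p = 0.0129) were called with 5 µM I-CBP112. The comparisons share their DMSO samples, so their counts are not independent.

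Beside VIM, 8 genes of intermediate filaments and lamins and 11 tubulins were tested. Their counts are read against the 21.2% of all genes tested called higher and 25.4% called lower with 5 µM CBP30. Of the 8, 3 were higher with 5 µM CBP30, with NES, nestin, at 1.31 ± 0.06 (adjusted p = 1.46e-05), and 1 was lower, DES, desmin, which went from 10.9 ± 0.790 to 2.29 ± 0.0226 FPKM (-1.85, adjusted p = 3.45e-05). Of the tubulins 4 were higher and 0 lower (1 at an unadjusted p under 0.05, and 2 called when samples were centred on reference genes), led by TUBB3 (1.61 ± 0.16, adjusted p = 0.000257).

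The promoters of the genes were searched for the CArG box, the site bound by SRF, on both strands in the 250 bases before the start given by RefSeq (GRCh38.p14), and no other motif was searched. ACTB has no promoter in that table and could not be searched. Of the other 9 genes, 3, ACTG1, TPM4 and FLNA, hold a match, which 1.16% of all 35116 promoters do (1.44% of the 27305 gene symbols). Among the other actin genes, 7 of 98 hold one (ACTA1, ACTC1, ACTG2, ACTN1, CNN2, ROCK2 and SRF). The stretches around the match are printed here with the box in capitals, as these are the genes whose motif can be set beside their response (ACTG1 chr17:81512864-81512913, minus strand, TPM4 chr19:16067345-16067394, plus strand, FLNA chrX:154374699-154374748, minus strand).
ACTG1: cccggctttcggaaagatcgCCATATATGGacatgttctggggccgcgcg
TPM4: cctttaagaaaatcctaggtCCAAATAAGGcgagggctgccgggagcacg
FLNA: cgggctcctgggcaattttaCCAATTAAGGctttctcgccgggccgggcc

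The box lies 94 to 85 bases before the start in ACTG1 and FLNA and 173 to 164 bases before it in TPM4. With 5 µM CBP30, TPM4 and FLNA were called higher and ACTG1 fell just short in limma (0.25, adjusted p = 0.0511). ACTG1 was called higher there with the length trend removed (0.36, adjusted p = 0.000149). With 2 µM CBP30, ACTG1 and TPM4 were called higher and FLNA lower. SRF, which holds a match too, was called lower by limma with 5 µM CBP30 (-0.25, adjusted p = 0.0240). Responses of the other listed actin genes with a match are not given here. TMSB10, the gene that moved the most, has no match in this window. A match is a string of letters and does not say whether a factor is bound.

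Across the 10 samples, the levels of ACTB ran with those of TMSB4X (Pearson's r = 0.962) and CFL1 (r = 0.939), less so with TMSB10 (r = 0.797), ACTG1 (r = 0.698) and TPM4 (r = 0.68), and little with FLNA (r = 0.139). These are descriptions over samples that fall into 5 treatment groups, in which replicate 1 of 2 µM CBP30 is extreme for most genes. Among 8987 other genes that averaged 5 FPKM or more, those most like ACTB over the 10 samples were POLR2L, an RNA polymerase subunit (r = 0.986), FTH1, the ferritin heavy chain (r = 0.982), ARHGDIA (r = 0.974), UBE2A, a ubiquitin-conjugating enzyme (r = 0.972), and MAGEC2 (r = 0.970).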

How the data were processed

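RNA of K562 cells in 10 samples, 2 for each of 5 conditions grouped by the labels, was measured. The authors deposited a table of FPKM values per gene and sample, made from 50-base single reads of stranded libraries of polyadenylated RNA. Per the submitters' processing notes, FastQC, TopHat2 2.0.10, Bowtie 1.0.0, SAMtools 0.1.19, Cufflinks 2.2.1, Cuffnorm and the build GRCh37 were used; the scaling is not given in the sources used here. The table had 0 columns that could not be assigned. P-values rest on the spread between the 2 samples of each group, pooled over all 5 groups and moderated by limma.

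The test was limma 3.58.1 (R 4.3.3) on log2(FPKM + 1), with all groups in 1 fit (eBayes with trend, 5 residual and 2.15 prior degrees of freedom) over the 12788 genes that averaged 0.5 FPKM or more, with Benjamini-Hochberg adjustment over all of them and calls at an adjusted p under 0.05. Fold changes on this scale understate those of low genes. The fit was tested on simulated data: of 200 genes changed by 1 on the log2 scale with 5 µM CBP30, 182 (91%) were recovered and 8 others called. These data held no other changed gene and no length trend, and the recovery of smaller differences, such as that of ACTB, was not tested. Transcript lengths came from GENCODE by symbol (19500 genes) or synonym (1909), 91.9% of the table. Coding sequences were read from GRCh37 and promoters from RefSeq. Python 3.11.15, pandas 2.3.3 and matplotlib 3.10.9 were used.

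Some listed items are not reported here, though they stay in the fits and in counts over whole lists. The members and lists were chosen with earlier results of these data known. Named genes are the 10 genes, the references, the called gene with the largest rise and the largest fall with 5 µM CBP30 in each listed group, and the 5 genes most like ACTB. POTEM, PFN1P2, the genes with a CArG box and the other genes of a fixed list were named outside this rule. Other settings tried were each sample left out, the replicate block, fits restricted to the groups compared, eBayes without trend, a pseudocount of 0.1, a filter at 5 FPKM or none, and 4 scalings (median centring, centring on reference genes, quantile normalization, removal of the length trend); the block with the length correction was chosen after seeing the data.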

Additional observations from a re-analysis of the deposited data

Results flagged for a closer look

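The change of FLNA from 2 to 5 µM differed between the compounds by 1.02 on the log2(FPKM + 1) scale (CBP30 minus I-CBP112), and was flagged because limma's test of this difference passed (adjusted p = 0.0105). FLNA went from 38.9 ± 4.98 to 74.9 ± 1.08 FPKM with CBP30 and from 56.4 ± 0.897 to 53.2 ± 2.59 with I-CBP112. It has the longest transcript of the 10 genes, and replicate 1 of 2 µM CBP30, whose values fell with transcript length, was the lowest sample for it at 35.4 FPKM. Without that sample, with replicate 2 alone in its group at 42.5 FPKM and assumed to vary like the others, the difference was 0.89 (adjusted p = 0.00191), and with the length trend removed it was 0.67 (adjusted p = 0.0036). Single outlying samples were not looked for with Dixon's criterion, which needs more than 2 samples a group.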

How the results depend on the processing

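Results were recomputed in 21 other settings. Single-gene values cover all differences from DMSO and, in the other comparisons, only those called in the fit of all 10 samples. Calls gained by the remaining differences of those comparisons are therefore not in the counts that follow. Of the values of single genes (48 differences, 10 genes), 822 of the recomputed values kept direction and call, 106 lost the call, 72 gained it and 8 changed sign. The sign changed for VIM with 5 µM CBP30 after quantile normalization (0.16) and with the length trend removed (0.048, and 0.048 also with the replicate block), for ACTB (-0.0051) and TMSB4X (-0.028) with 5 µM I-CBP112 when centred on reference genes, for VIM with 2 µM CBP30 (range -0.21 to 0.10 over the fits without 1 sample), and for ACTB (-0.0060 to 0.071) and CFL1 (-0.0012 to 0.093) with 2 µM I-CBP112 without its replicate 2. Centring on reference genes lowered all differences with 2 µM CBP30 by 0.17, the mean shift of those genes.

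Counts of the 10 genes and of the 94 other actin genes changed as follows, and the cause was not tested. With the length trend removed, 8 of the 10 genes were higher with 2 µM CBP30, I-CBP112 at 2 µM had 3, and the other actin genes had 5 higher and 3 lower with 2 µM and 18 higher and 9 lower with 5 µM I-CBP112. The replicate block together with that correction gave 3, 5 and 3, and 18 and 8 for the same I-CBP112 counts. With only the groups compared, which has fewer samples, 0 of the 10 genes were higher and 0 lower with 2 µM CBP30, where the other actin genes had 1 and 2. In that setting 2 µM I-CBP112 had 0 of every kind, and 5 µM I-CBP112 had 4 of the 10 genes higher and 19 other actin genes higher and 8 lower. After quantile normalization, 2 genes were lower with 2 µM CBP30, 10 higher with 5 µM CBP30, 3 higher and 1 lower with 2 µM I-CBP112, and 1 lower with 5 µM I-CBP112, and the other actin genes had 1 higher with 2 µM and 15 higher with 5 µM I-CBP112. Of all 12788 genes, 3151 were called higher and 3178 lower with 5 µM CBP30 in that setting. Centred on reference genes, 2 genes were lower with 2 µM CBP30, 2 higher with 2 µM I-CBP112 and 1 lower with 5 µM I-CBP112, and the other actin genes had 0 higher and 0 lower with 2 µM and 5 lower with 5 µM I-CBP112. Without a filter, 1 other actin gene was higher and 2 lower with 2 µM I-CBP112, and when genes had to average 5 FPKM 3 were higher at 5 µM.

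Over the fits without 1 sample each, the 10 genes called higher numbered 3 to 8 with 2 µM CBP30, 3 to 9 with 5 µM CBP30, 0 to 4 with 2 µM I-CBP112 and 0 to 5 with 5 µM I-CBP112, and those called lower 0 to 2, 0 to 0, 0 to 1 and 0 to 1. The other actin genes called higher numbered 11 to 40, 24 to 48, 0 to 13 and 1 to 32, and those called lower 10 to 28, 10 to 23, 0 to 6 and 1 to 12, in the same order. All genes called went from 4111 to between 307 and 7260 with 2 µM CBP30, from 5962 to between 4069 and 8049 with 5 µM CBP30, from 205 to between 28 and 1160 with 2 µM I-CBP112, and from 910 to between 200 and 2937 with 5 µM I-CBP112, over all settings.

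The replicate number was also tried as a block. Same-numbered samples share only a number: the correlation of their deviations from the group means was between -0.0681 and 0.0939 over 10 pairs of groups. With the replicate block 4 of the 10 genes were higher with 5 µM CBP30, without ACTB (0.36, adjusted p = 0.0572) and TMSB4X (0.42, adjusted p = 0.0535). TMSB4X with 2 µM CBP30 (adjusted p = 0.0662) and TMSB4X and TPM1 between the compounds at 2 µM (adjusted p = 0.0704 and 0.0539) also lost their calls, and 1 other actin gene was higher with 2 µM I-CBP112. Depth is unknown here, and with 2 samples a group the calls rest on the spread shared by all groups.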
